A study of Rattus norvegicus with 24 samples.

Results

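The endocannabinoid receptor CB1 and the enzymes that make and break down its ligands were followed in the nucleus accumbens (NAc) of male Sprague Dawley rats, in 6 groups of 4 RNA-seq libraries. The 8 genes were chosen by symbol: Cnr1, Napepld, Faah, Dagla, Daglb, Mgll, Abhd6 and Abhd12. All 8 were found among the 32545 genes listed, under 9 gene IDs, because Faah is listed at 2 places. In the injection experiment, rats received 5 intraperitoneal injections of 250 ug/kg lipopolysaccharide (LPS), a bacterial cell wall component that activates the immune system, or saline. After a drug-free interval they received heroin, rising from 1 to 5 mg/kg over 5 days, or saline. Per the labels tissue was taken 1 h after the last injection, while the study's methods place a locomotor test after that injection and set the end less exactly. The groups, named by pretreatment and then treatment, are LPS-Heroin, LPS-Saline, Saline-Heroin and the control group Saline-Saline. In the self-administration experiment, rats with a jugular catheter worked for heroin at 0.075 mg/kg per infusion (Heroin-SA) or for saline (Saline-SA) in 10 daily sessions of 6 h, and tissue was taken directly after the last session. All rats were adults that were 8 weeks old on arrival, and the dissected tissue held all cell types of the NAc.

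CB1 is a presynaptic receptor that couples to inhibitory G proteins and lowers transmitter release. Its main ligands are anandamide and 2-arachidonoylglycerol (2-AG), lipids that are made on demand in the postsynaptic cell and travel backwards across the synapse. In the striatum, to which the NAc belongs, CB1 lies on the terminals of cortical inputs, on medium spiny neurons and on interneurons, and it takes part in striatal plasticity and in responses to opioids.

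Abhd12 and Mgll, both of 2-AG breakdown, were the most abundant of the 8 genes. FPKM, read fragments divided by the length of the gene and by the size of the library, allows levels of different genes to be compared per length. Over the 24 libraries, Abhd12, a serine hydrolase that can split 2-AG, had the highest mean level at 104.7 ± 10.4 FPKM (SD, n = 24), above 94.9% of the 15118 genes with a mean of at least 0.5 FPKM. Mgll, which encodes monoacylglycerol lipase, the main 2-AG hydrolase of neurons, stood at 59.2 ± 7.92 FPKM, and Abhd6, a membrane 2-AG hydrolase, at 25.5 ± 4.45 FPKM. Of the summed FPKM of these 3 hydrolases, Abhd12 made up 55.3% ± 2.97, Mgll 31.2% ± 2.98 and Abhd6 13.5% ± 1.77 (SD, n = 24).

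The receptor gene Cnr1 had a mean of 26.6 ± 8.72 FPKM and was the most variable of the genes listed once, from 13.2 to 49.9 FPKM. Dagla, the main 2-AG synthase of the adult brain, had 17.3 ± 2.29 FPKM and its paralog Daglb 9.84 ± 1.24 FPKM, and Dagla was above Daglb in all 24 libraries, by a ratio of 1.26 to 2.84. Napepld, whose enzyme releases anandamide from its membrane precursor, was the lowest of the genes listed once, at 4.12 ± 1.26 FPKM, which rested on 39 to 146 reads per library.

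On the rn6 assembly, Cnr1 (ENSRNOG00000008223) is listed at chr5:49311030-49333056 on the plus strand. Napepld (ENSRNOG00000011363) lies at chr4:9966891-10002247 and Mgll (ENSRNOG00000014508) at chr4:120671489-120771088, both on the plus strand. Dagla (ENSRNOG00000027264) lies at chr1:226297016-226353611 and Daglb (ENSRNOG00000001079) at chr12:13114003-13157570, both on the minus strand. Abhd6 (ENSRNOG00000008167) lies at chr15:18647844-18695133 and Abhd12 (ENSRNOG00000036934) at chr3:146630299-146690375, also on the minus strand. Abhd12 overlaps Pygb on the opposite strand, and since the use of strand in the counting is not stated, reads of the 2 genes cannot be told apart where they overlap. All 9 gene IDs are annotated as protein coding, and values are sums over the whole gene, so exons and UTRs were not separated.

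**Figure D1:**
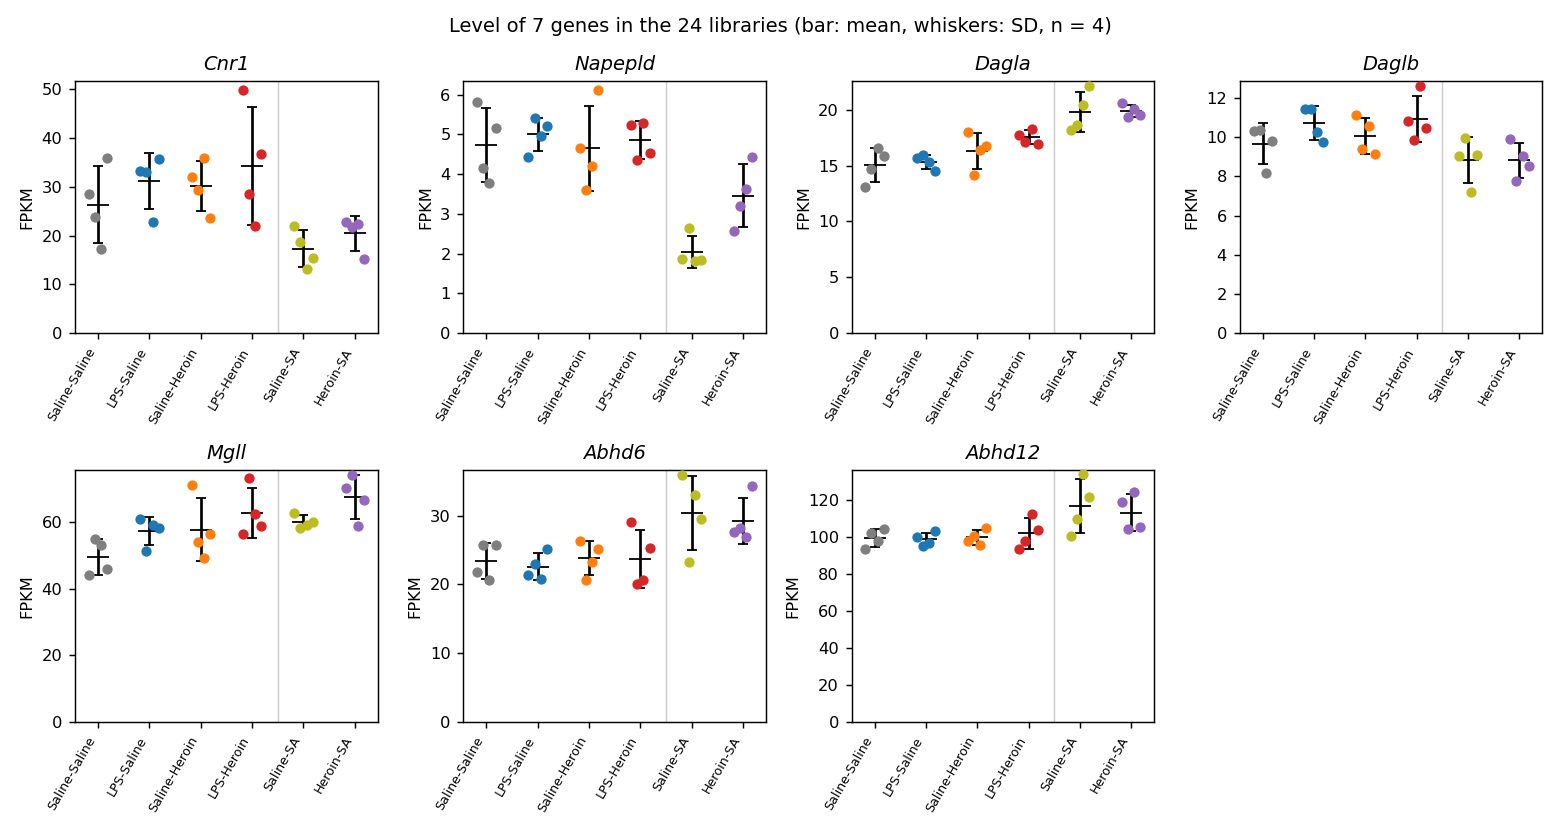
FPKM (y axis, from 0) of the 7 genes listed once in each of the 24 libraries (points), by group (x axis), with the group mean (bar) and SD (whiskers, n = 4). The vertical line separates the injection groups from the self-administration groups; Napepld lay at 1.82 to 2.63 FPKM in Saline-SA and at 3.61 to 6.12 FPKM in the 4 injection groups.

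Libraries held 12312878 to 18850240 reads on genes. Mitochondrial genes took 7.78% ± 0.819 of the reads in Saline-Saline and between 8.13% and 8.31% on average in the other injection groups, against 12.9% ± 2.47 in Saline-SA and 10.8% ± 0.743 in Heroin-SA (SD, n = 4). Markers of striatal medium spiny neurons were high in every group, with a summed level of 1329 to 2654 FPKM over the 13 markers in Saline-Saline. Markers of cortical glutamatergic neurons, cells that the NAc itself lacks, varied between libraries, from 61.4 to 494 FPKM in sum over the 8 markers listed. Saline-Saline replicate 1 stood apart in choroid plexus markers, with a summed level of 335 FPKM against at most 32.5 FPKM in any other library, and in ependyma markers, with 63.6 FPKM against at most 44.5 FPKM.

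The first question was whether an LPS history, heroin injections or both shifted these genes relative to Saline-Saline. A gene was called where the unadjusted limma p did not exceed 0.05 and the log2 fold change reached 0.378 in either direction, a 1.30-fold change. No gene of any kind had an adjusted p under 0.05 in these comparisons. None of the 9 gene IDs was called for LPS-Saline, where 2.37% of all genes tested were, for Saline-Heroin, where 3.07% were, or for LPS-Heroin, where 5.43% were. These 3 comparisons share the Saline-Saline libraries.

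Mgll had the largest difference from Saline-Saline relative to its error. Its level was 44.2, 55.0, 53.1 and 45.9 FPKM in the 4 Saline-Saline libraries and 56.3, 73.4, 62.4 and 58.8 FPKM in the 4 LPS-Heroin libraries. Every LPS-Heroin library was above every Saline-Saline library. The log2 fold change was 0.34 (SE 0.10, 95% interval 0.11 to 0.57), with a limma p of 0.0088 and an adjusted p of 0.264, under the limit on the fold change. Without Saline-Saline replicate 2 or LPS-Heroin replicate 1 it was 0.39 and passed that limit. The two-sided exact permutation p of 0.0286 is the smallest that 4 against 4 libraries can give. The lowest Saline-Saline value was that of replicate 1, the library high in choroid plexus markers, and without it the difference was 0.29 (with a limma p of 0.0266, adjusted p = 0.518).

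The treatments given singly left Mgll between those groups. LPS-Saline libraries held 61.0, 51.4, 59.3 and 58.3 FPKM, a log2 difference from Saline-Saline of 0.22 (SE 0.09, with a limma p of 0.0367, adjusted p = 0.736). Saline-Heroin libraries held 71.3, 54.0, 49.3 and 56.6 FPKM, a log2 difference of 0.21 (SE 0.12, with a limma p of 0.107, adjusted p = 0.753). Both groups overlapped Saline-Saline, and in the order of mean levels no neighbouring groups were separated for this gene. The share of Mgll in the FPKM of the 3 hydrolases was 28.7% ± 2.21 in Saline-Saline and 33.3% ± 3.39 in LPS-Heroin (SD, n = 4).

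The 2-AG synthase Dagla was the other gene whose LPS-Heroin libraries all lay above the controls. It was measured at 13.1, 14.7, 16.6 and 15.9 FPKM in Saline-Saline and at 17.8, 17.1, 18.3 and 17.0 FPKM in LPS-Heroin. The log2 fold change was 0.22 (SE 0.08, with a limma p of 0.0241, adjusted p = 0.353). Saline-Saline replicate 1 was again the lowest control, and without it the value was 0.16 (with a limma p of 0.0567, adjusted p = 0.588). Thus 2 of the 9 gene IDs did not overlap between these groups, against 6.86% of all genes tested. In LPS-Saline, with 15.7, 15.9, 15.3 and 14.5 FPKM, Dagla differed from Saline-Saline by a log2 value of 0.03 (SE 0.09). In Saline-Heroin it differed by 0.12 (SE 0.10). No gene ID was free of overlap in LPS-Saline, against 4.11% of genes, or in Saline-Heroin, against 3.39%.

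The level of Cnr1 was highest on average in LPS-Heroin but spread widely. Its 4 LPS-Heroin libraries held 49.9, 28.6, 21.9 and 36.7 FPKM, and its 4 Saline-Saline libraries 28.5, 23.8, 17.2 and 35.9 FPKM. The log2 difference of 0.36 had a 95% interval from -0.27 to 0.99, so that neither direction was outside the error. In LPS-Saline the difference was 0.27 (interval -0.23 to 0.78) and in Saline-Heroin 0.23 (interval -0.26 to 0.72).

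For Abhd12, Abhd6, Daglb and Napepld the intervals were narrower than for Cnr1. Against Saline-Saline, the log2 difference of Abhd12 ran from -0.01 in LPS-Saline to 0.03 in LPS-Heroin, with an SE of at most 0.07. Abhd6 ran from -0.05 in LPS-Saline to 0.02 in Saline-Heroin. Daglb was 0.15 (SE 0.10) in LPS-Saline, 0.06 (SE 0.10) in Saline-Heroin and 0.18 (SE 0.11) in LPS-Heroin. Napepld ran from -0.03 in Saline-Heroin to 0.10 in LPS-Saline, with 4.73 ± 0.930 FPKM in Saline-Saline and 5.01 ± 0.420 FPKM in LPS-Saline (SD, n = 4). The median over the 9 gene IDs was 0.03 for LPS-Saline, 0.12 for Saline-Heroin and 0.22 for LPS-Heroin, where the median over all genes was 0.01 or less. Faah, whose values are uncertain, entered these medians under both of its gene IDs, and their order depended on it. Among the genes listed once, the middle value was 0.10 for LPS-Saline (Napepld). It was 0.06 for Saline-Heroin and 0.18 for LPS-Heroin (Daglb in each).

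Heroin after LPS was also set against each treatment alone. Against LPS-Saline, 1 of 9 gene IDs was called, the shorter Faah entry described below, against 2.29% of genes. Dagla was higher in every LPS-Heroin library than in every LPS-Saline library, with a log2 difference of 0.19 (SE 0.06, with a limma p of 0.0152, adjusted p = 0.977), and it was 1 of 9 gene IDs without overlap, against 2.58% of genes. Against Saline-Heroin, none of the 9 was called, against 2.2% of genes, and none was free of overlap, against 2.37%.

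In the factorial fit of the 16 injection libraries, none of the 9 gene IDs was called for the LPS main effect, against 1.77% of genes, or for the LPS by heroin interaction, against 2.31%. For the heroin main effect 1 of 9 was called, again the shorter Faah entry, against 2.46%. Mgll had a log2 main effect of 0.17 (SE 0.08) for LPS and of 0.17 (SE 0.08) for heroin, with limma p-values of 0.0475 and 0.0512. Dagla had 0.07 (SE 0.06) for LPS and 0.15 (SE 0.06, with a limma p of 0.0171, adjusted p = 0.572) for heroin. The interaction of Mgll was -0.09 (95% interval -0.43 to 0.25) and that of Dagla 0.07 (interval -0.17 to 0.32).

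Other cell type markers moved between the same groups as Mgll and Dagla. In LPS-Heroin, 7 of 8 cortical glutamatergic markers tested were called higher than in Saline-Saline, with a median log2 difference of 1.09. Their summed level was 412 to 486 FPKM in LPS-Heroin and 112 to 315 FPKM in Saline-Saline. Of 10 markers of septum and ventral forebrain, 6 were called lower, with a median of -0.95, while 0 of 13 medium spiny neuron markers were called. The summed level of the septum and ventral forebrain markers overlapped, at 37.6 to 64.7 FPKM in LPS-Heroin and 61.5 to 157 FPKM in Saline-Saline. Its highest value was that of Saline-Saline replicate 1, the library high in choroid plexus markers. Of 5 red blood cell markers, 4 were called higher, with a median of 0.62, and their summed level was 579 to 851 FPKM in LPS-Heroin and 408 to 598 FPKM in Saline-Saline. The part of these differences in the levels of Mgll, Dagla and Cnr1 was not tested. In bulk tissue, fewer cells of a type and less RNA per cell cannot be told apart.

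**Figure D2:**
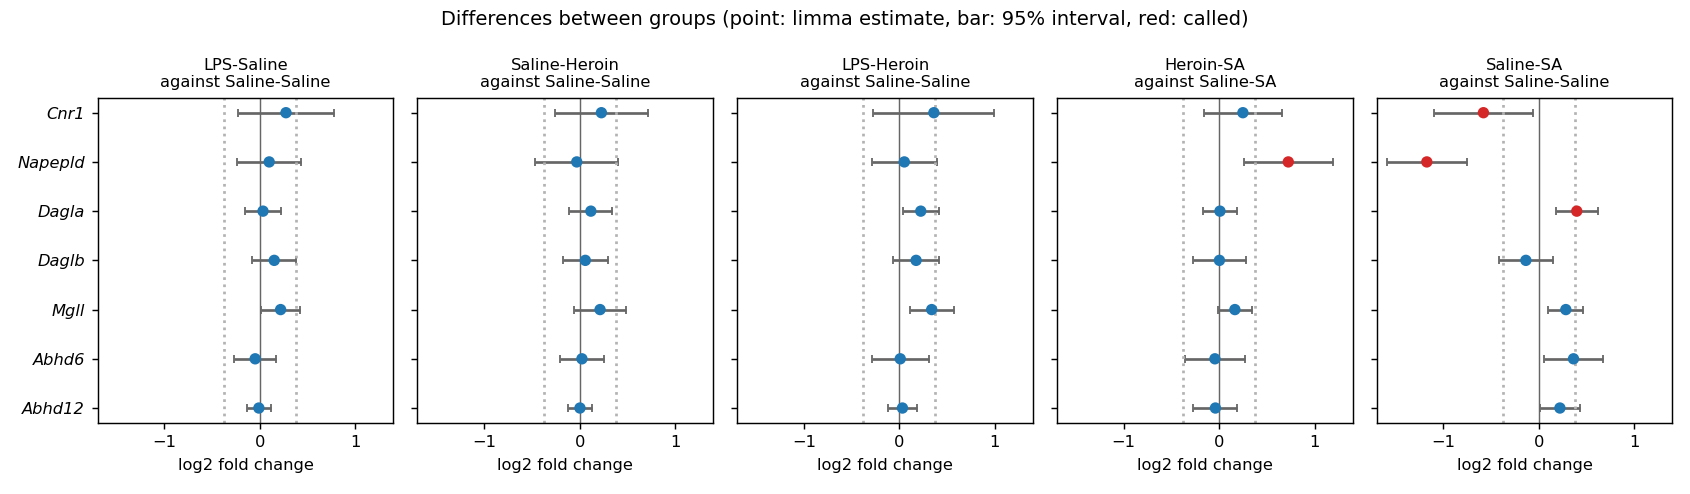
Log2 fold change (x axis, limma estimate with its 95% interval) of 7 genes in 5 comparisons, with red points for called genes and dotted lines at the limit of 0.378 in either direction. No point is red in the 3 comparisons of the injection experiment. Napepld is red at 0.72 in Heroin-SA and at -1.17 between the saline groups, where Dagla at 0.40 and Cnr1 at -0.58 are red as well.

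The second question was whether self-administered heroin changed these genes. Napepld was higher in Heroin-SA than in Saline-SA. Its level was 1.85, 2.63, 1.82 and 1.83 FPKM in the 4 Saline-SA libraries and 2.56, 3.19, 3.63 and 4.44 FPKM in the 4 Heroin-SA libraries. The groups overlapped through 1 Saline-SA library at 2.63 FPKM and 1 Heroin-SA library at 2.56 FPKM. The log2 fold change was 0.72 (SE 0.21, 95% interval 0.26 to 1.19), a 1.65-fold difference, with a limma p of 0.0066 and an adjusted p of 0.339. The two-sided exact permutation p was 0.0571. These levels rested on 39 to 75 reads in Saline-SA and 55 to 104 reads in Heroin-SA.

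Napepld was 1 of 9 gene IDs called in this comparison, against 5.45% of all genes tested, and no gene ID was free of overlap, against 6.8%. Without Heroin-SA replicate 4, Cnr1 was called as well, and the value of Napepld was 0.60. That library summed to 61.4 FPKM in cortical markers, where the rest of Heroin-SA held 359 to 447 FPKM. In red blood cell markers it summed to 3080 FPKM, against at most 793 FPKM. Saline-SA also held a library low in cortical markers (replicate 3, 70.8 FPKM) and 1 high in red blood cell markers (replicate 4, 4649 FPKM). The part of these markers in the levels of Napepld and Cnr1 was not tested. The receptor gene Cnr1 held 21.9, 18.6, 13.2 and 15.5 FPKM in Saline-SA and 22.7, 21.8, 22.3 and 15.1 FPKM in Heroin-SA. It differed by a log2 value of 0.25 (95% interval -0.16 to 0.66). Mgll differed by 0.17 (interval -0.01 to 0.34, with a limma p of 0.0628, adjusted p = 0.460). Both 2-AG synthases had nearly equal means, with a log2 difference of 0.01 (interval -0.17 to 0.19) for Dagla and 0.00 (interval -0.28 to 0.28) for Daglb. Abhd6 differed by -0.04 and Abhd12 by -0.04.

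The heroin effect on Napepld was compared between both experiments directly. The experiments also differ in dose, route, duration, housing and light cycle, so that the mode of intake cannot be told apart from these. The control mean of Napepld was 2.03 FPKM in Saline-SA and 4.73 FPKM in Saline-Saline. Its log2 difference was 0.72 with self-administration and -0.03 with injections, and the difference of these was 0.76 (SE 0.29, 95% interval 0.15 to 1.36, with a limma p of 0.0182, adjusted p = 0.718). It was 1 of 9 gene IDs called in this test, against 4.38% of genes. Of the other genes listed once, the difference was within 0.11 of 0 on the log2 scale, and the interval was widest for Cnr1, from -0.62 to 0.67.

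The saline groups of the experiments were then set side by side, a comparison added after the data were seen. They differ in housing, surgery, light cycle, sessions and injections, so experiment and group cannot be told apart. Of the 9 gene IDs, 3 were called, Napepld, Dagla and Cnr1, against 22.8% of all genes tested, and 3 were free of overlap, Napepld, Dagla and Mgll, against 28.3%. Both counts stand near the share over all genes, and without Saline-Saline replicate 1 or Saline-SA replicate 4 the first was 1, Napepld.

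Napepld had the largest of these differences, with 5.82, 4.15, 3.78 and 5.16 FPKM in Saline-Saline and no Saline-SA library above 2.63 FPKM. The log2 difference, Saline-SA less Saline-Saline, was -1.17 (SE 0.19), with a limma adjusted p of 0.0032. Dagla was higher in Saline-SA, at 18.2, 18.7, 20.4 and 22.1 FPKM, with a log2 difference of 0.40 (SE 0.10, adjusted p = 0.0197). Mgll was also higher there, at 58.3 to 62.9 FPKM, by 0.28 (SE 0.08, adjusted p = 0.0338), under the limit on the fold change. Cnr1 differed by -0.58 (SE 0.23, adjusted p = 0.10). Its call was lost in 7 of 21 alternatives, among them leaving out Saline-Saline replicate 1 or 4 or Saline-SA replicate 3 or 4, and without 1 of the libraries its value lay between -0.77 and -0.42. Abhd6 differed by 0.36, under the limit, and was called without Saline-Saline replicate 2 or 4 or Saline-SA replicate 2, where it reached 0.49.

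Markers differed between the same saline groups. In Saline-SA, 8 of 13 medium spiny neuron markers and 6 of 8 markers of endothelium and mural cells tested were called higher, and 7 of 9 oligodendrocyte markers were called lower. Of 5 red blood cell markers, 3 were called higher, with a median log2 difference of 1.41, and their summed level was 597 to 4649 FPKM in Saline-SA, highest in replicate 4, against 408 to 598 FPKM in Saline-Saline. The mean share of mitochondrial reads was 12.9% in Saline-SA and 7.78% in Saline-Saline. The part of these differences in the levels of Napepld, Dagla, Mgll and Cnr1 was not tested.

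Across the 6 groups, mean levels of the genes followed different orders. Napepld was lowest in Saline-SA at 2.03 ± 0.398 FPKM, next lowest in Heroin-SA at 3.45 ± 0.789 FPKM, and between 4.65 and 5.01 FPKM in the injection groups, with each neighbour in this order overlapping the next. Abhd6 was 30.4 ± 5.43 FPKM in Saline-SA and 29.3 ± 3.37 FPKM in Heroin-SA. Its Heroin-SA libraries did not overlap those of Saline-Heroin, the next group in order at 23.8 ± 2.48 FPKM. This was the only pair of neighbours without overlap among the 7 genes listed once, and the share over all genes was not counted. LPS-Heroin, with a mean of 23.7 FPKM, reached 29.0 FPKM and overlapped Heroin-SA, whose lowest library held 26.9 FPKM. These groups belong to different experiments, so group and experiment cannot be told apart. The ratio of Dagla to Daglb was 2.29 ± 0.440 in Saline-SA and 2.27 ± 0.176 in Heroin-SA, against means of 1.44 to 1.63 in the injection groups (SD, n = 4).

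Faah encodes fatty acid amide hydrolase, the enzyme that ends the action of anandamide. It is listed under ENSRNOG00000045949 at chr5:134852875-134871775 and, as a shorter entry, under ENSRNOG00000011019 at chr5:134331929-134348995, both on the minus strand of rn6. Each of the 2 overlaps an unnamed gene on the opposite strand. Whether the 2 entries are near-identical copies was not tested. Reads of such copies can be split by the counting, so the values of Faah are uncertain.

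The shorter entry held very different numbers of reads among rats of a group. It had 3, 157, 1 and 84 reads in Saline-Saline, 7, 2, 3 and 5 reads in LPS-Saline, 108, 58, 10 and 90 reads in Saline-Heroin and 4, 239, 59 and 66 reads in LPS-Heroin. Its 4 Saline-SA libraries held 6, 75, 2 and 85 reads, and its 4 Heroin-SA libraries 1, 3, 30 and 2 reads. Libraries with at most 10 reads and libraries with over 50 stood side by side in 4 of the 6 groups.

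The longer entry varied in a like manner, from 6 to 201 reads, and its low libraries were not always those of the shorter one. In Saline-Heroin, replicate 1 held 14 reads of the longer and 108 of the shorter entry, while replicate 3 held 201 of the longer and 10 of the shorter. The share of the shorter entry in the reads of both ran from 0.885% to 88.5% over the 24 libraries. The sum of both ran from 9 to 352 reads.

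Against Saline-Saline, neither entry was called, with an SE of 0.54 to 0.84 for the longer and of 1.20 to 1.42 for the shorter, the widest errors of the 9 gene IDs. The shorter entry was the one called in LPS-Heroin against LPS-Saline, with a log2 difference of 2.81 (SE 0.90, with a limma p of 0.0121, adjusted p = 0.977). The value ran from 1.47 with a pseudocount of 1 to 3.77 without LPS-Heroin replicate 1, and the call was lost in 4 of 21 alternatives, with quantile normalization, at an adjusted p under 0.05 and in both limma-voom fits on reads. Its groups overlapped, because 1 LPS-Heroin library held 4 reads. With reads of both entries summed, LPS-Heroin held 151, 352, 168 and 215 reads and LPS-Saline 23, 138, 105 and 18 reads, which did not overlap after scaling by library size, with a two-sided exact permutation p of 0.0286. Against Saline-Saline, with 145, 305, 20 and 128 reads, the summed values of all 3 treated groups overlapped, with exact permutation p-values of 0.371 to 0.486. The shorter entry's heroin main effect was 2.02 (SE 0.85, with a limma p of 0.0314, adjusted p = 0.586), and it fell to 0.94 with a pseudocount of 1, where it was no longer called. Leaving out any 1 of 8 libraries also ended that call.

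**Figure D3:**
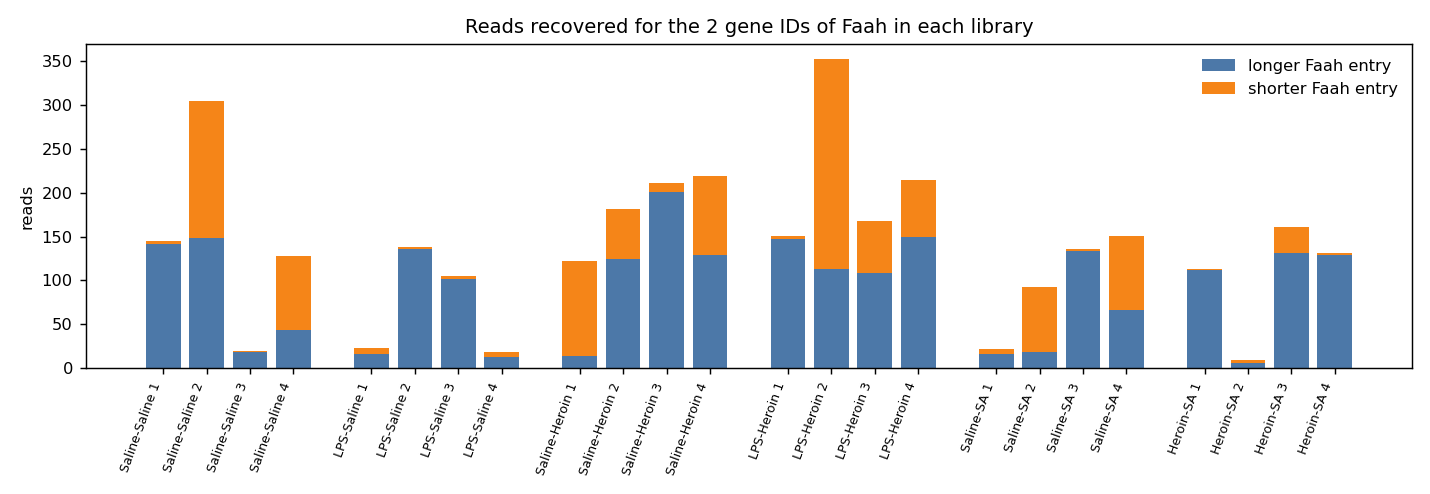
Reads (y axis) recovered for the longer (blue) and the shorter (orange) of 2 gene IDs of Faah, stacked, in each of the 24 libraries (x axis, group and replicate). Bars range from 9 reads in Heroin-SA replicate 2 to 352 reads in LPS-Heroin replicate 2, and the share of each entry changes between rats of a group.

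Within groups, no pair of the 8 genes varied together beyond the correction. Over the 24 libraries with group means removed, Pearson's r over 28 pairs ran from -0.348 for Faah with Mgll to 0.390 for Faah with Abhd12. The lowest adjusted p of the within-group permutation test was 0.752, with 100000 shuffles. For Mgll and Dagla, whose LPS-Heroin libraries all lay above the controls, r was 0.24 and rho 0.10 (permutation p = 0.375 and 0.681, adjusted p = 0.889 and 0.913).

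Cnr1 was compared with the cell type markers in the same way, and none of its pairs passed the correction. Over the 24 libraries with group means removed, its r with the mean log2 level of the 13 medium spiny neuron markers was -0.73 and its Spearman's rho -0.67, with permutation p-values of 0.0016 and 0.0044. Adjusted over the 88 pairs of gene and marker list, these were 0.056 and 0.131. Without the 2 libraries farthest from the median of Cnr1, r was -0.73. Within the 16 injection libraries r was -0.80 (permutation p = 0.0032, adjusted p = 0.282) and within the 8 self-administration libraries -0.51 (permutation p = 0.253, adjusted p = 0.708). With the cortical markers, r was 0.55 and rho 0.35 over the 24 libraries (permutation p = 0.0043 and 0.103, adjusted p = 0.095 and 0.689).

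**Figure D4:**
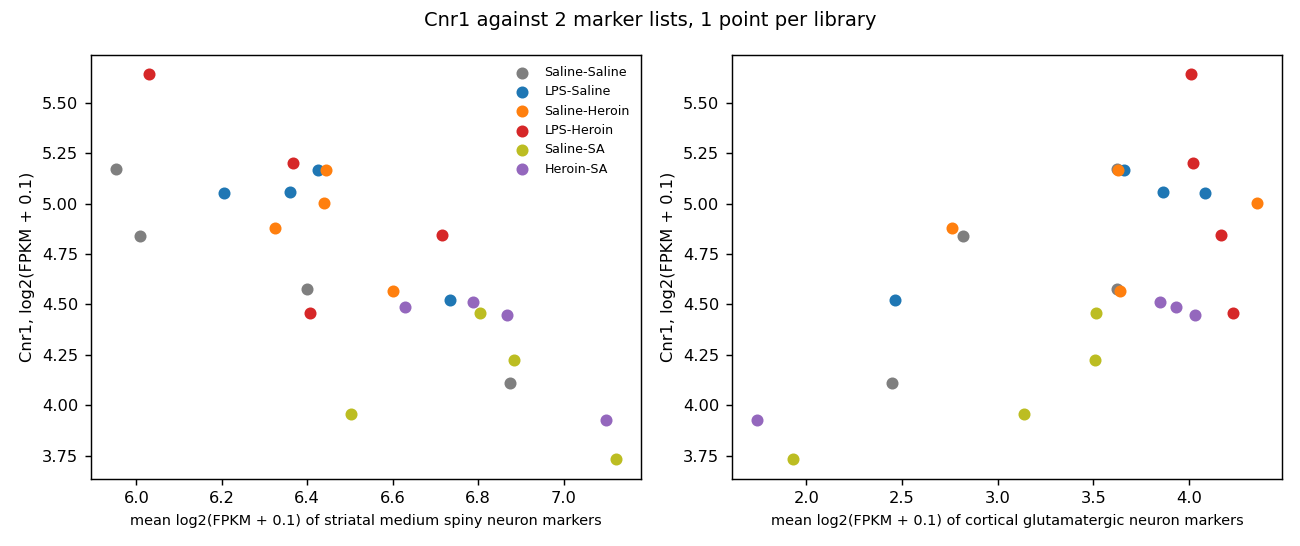
Cnr1, as log2(FPKM + 0.1) on the y axis, against the mean log2(FPKM + 0.1) of the striatal medium spiny neuron markers (left) and of the cortical glutamatergic neuron markers (right), 1 point per library, coloured by group. With group means removed, r was -0.73 on the left and 0.55 on the right.

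For the summed reads of Faah and the microglia markers, r was 0.64 and rho 0.68 over the 24 libraries (permutation p = 0.0012 and 0.00026, adjusted p = 0.056 and 0.023), so that rho passed the correction and r did not. Without the 2 libraries farthest from the median r was 0.67. Within the injection libraries r was 0.59 (permutation p = 0.0499, adjusted p = 0.486) and within the self-administration libraries 0.79, which dropped to 0.27 without 2 libraries. Abhd12 had r of -0.68 and rho of -0.72 with the ependyma markers (permutation p = 0.0019 and 0.0016, adjusted p = 0.056 and 0.072), and r was -0.60 without the 2 farthest libraries. Within the injection libraries its r was -0.50 (permutation p = 0.109, adjusted p = 0.565) and within the self-administration libraries -0.96 (permutation p = 0.0119, adjusted p = 0.421).

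Genes most like each member over the 24 libraries were named by Pearson's r of log2(FPKM + 0.1) among 12441 genes, as a description in which the difference between the experiments takes part. For Cnr1 these were Tnks1bp1 (r = 0.93), Slitrk1 (0.91) and Slit1 (0.90), and with group means removed the r of Tnks1bp1 was 0.87. For Napepld they were Kcna2, Fam20b and Bace1, each at 0.89, and with group means removed between 0.40 and 0.46. For Dagla they were Adgrb1 (0.93), Drosha (0.93) and Speg (0.92), for Daglb Dync1i1 (0.80), Adcy2 (0.80) and Incenp (0.79), and for Mgll Mark1 (0.78), Dapk1 (0.75) and Myrip (0.74). Abhd6 was nearest to Pygo2 (0.80), Kdm4a (0.79) and Spice1 (0.79), Abhd12 to Ccdc104 (0.91), Arl3 (0.91) and Atp5j2 (0.90), and Faah as summed reads to Srrd (0.63), Smarca4 (0.63) and Cdkn1b (0.59).

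Other genes of the pathway were counted from 5 lists. The lists were chosen with earlier results of these data known, so their counts describe these libraries and are no independent test of the pathway. Of 17 genes tested that act downstream of CB1, 5 were called higher in LPS-Heroin than in Saline-Saline and 0 lower, against 5.43% of all genes tested, with a median log2 difference of 0.15. In the same comparison 7 of 8 cortical and 4 of 5 red blood cell markers were called higher. The 5 downstream genes included Adcy1, an adenylyl cyclase (1.01, SE 0.26), and the calcium channel subunit gene Cacna2d1 (0.52). The others were the inwardly rectifying potassium channel genes Kcnj9 (0.50), Kcnj3 (0.83) and Kcnj6 (0.85). Adjusted p-values in limma ran from 0.202 to 0.430. Lpl, which encodes lipoprotein lipase, was called as well, at 0.44 both in LPS-Heroin and in Saline-Heroin, each time as 1 of 13 other enzymes tested. Cacna2d1 and Adcy1 were also called in LPS-Saline, at 0.46 and 0.59, and Cacna2d1 in Saline-Heroin, at 0.40, comparisons that share the controls. Homer1, a scaffold of group I glutamate receptors, was called in LPS-Saline, at 0.41, and Camk2a, a kinase subunit of the synapse, in Saline-Heroin, at 0.41. In LPS-Saline, 2 of 17 genes downstream of CB1 and 1 of 14 upstream of 2-AG synthesis were thus called, against 2.37% of all genes. In Saline-Heroin these counts were 1 of 17 and 1 of 14, against 3.07%. Adcy1 was also called for the LPS main effect (0.54) and the heroin main effect (0.47), and Kcnj3 for the latter (0.54). Of the 17 downstream genes, 1 was called for LPS, against 1.77% of all genes, and 2 for heroin, against 2.46%. Fabp7, a fatty acid binding protein that carries anandamide, was called higher in LPS-Heroin than in LPS-Saline (0.48) and than in Saline-Heroin (0.44). It was 1 of 10 carriers and CB1 partners tested in each, against 2.29% and 2.2% of all genes. Its LPS by heroin interaction was 0.69 (SE 0.19, limma adjusted p = 0.992). The interaction of Fabp5, another such carrier, was called at 0.39. Thus 2 of 10 carriers and CB1 partners were called for the interaction, against 2.31% of all genes. Chrm3, a muscarinic receptor gene, was called higher in LPS-Heroin than in Saline-Heroin (0.40), as 1 of 14 upstream genes, against 2.2% of all genes.

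With self-administration, Adcy1 was called higher in Heroin-SA than in Saline-SA (1.05, SE 0.34), as were Homer1 (0.59, SE 0.23) and Abhd2, a hydrolase able to split 2-AG (0.57, SE 0.19), with limma adjusted p-values of 0.347 to 0.405. They were 1 of 17 genes tested downstream of CB1, 1 of 14 upstream of 2-AG synthesis and 1 of 13 other enzymes. The share over all genes tested was 5.45%. Of 10 carriers and CB1 partners and 3 other receptors, 0 were called. Between the saline groups, 6 of 14 genes upstream of 2-AG synthesis were called lower in Saline-SA and 0 higher, where 22.8% of all genes tested were called and 2165 of these 3448 were lower. Among them were Gnaq, the G protein that drives phospholipase C (-1.46, SE 0.09, adjusted p = 7.5e-05), Grm5, a metabotropic glutamate receptor (-1.15, SE 0.15), Homer1 (-1.19, SE 0.20) and Camk2a (-0.54, SE 0.08). Downstream of CB1, 6 of 17 were called lower and 0 higher, against the same share of 22.8%, including Gnai1, an inhibitory G protein (-0.92, SE 0.11), and Cacna2d1 (-0.95, SE 0.11). The other lists did not share this direction. Of 13 other enzymes tested, 3 were called higher and 1 lower, against the same 22.8%. Of 10 carriers and CB1 partners, 1 was called higher and 1 lower, and of 3 other receptors 1 was called higher and 0 lower. In these lists Abhd2 (-0.94, SE 0.12) and Sgip1, a partner of CB1 (-0.61, SE 0.09), had the smallest p-values, and both were lower. There too, experiment and group cannot be told apart.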

How the data were processed

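RNA-seq of the NAc was analysed in 24 libraries, 4 per group, grouped by their labels. Per the labels, the submitters processed reads with fastp, HISAT2 and featureCounts on rn6. Versions, annotation release and the use of strand are not given in the sources used here. The authors deposited FPKM values, scaled by gene length and library size. FPKM times length gave whole multiples of a step per library for 100% of values (tolerance 0.01 read), so reads were recovered. The library size implied by the step was 0.940 (Saline-SA replicate 3) to 1.05 (Saline-Saline replicate 1) times the recovered reads on genes. The size used for FPKM was thus not a plain total of reads in every library. Few reads limit the precision of a low gene, beside the spread between rats.

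Groups were compared with limma 3.58.1 in R 4.3.3, limma-trend on log2(FPKM + 0.1), over genes with a mean of at least 0.5 FPKM in the libraries fitted, with Benjamini-Hochberg adjustment over all genes tested. Fold changes are on this scale and understate those of low genes. A call needed an unadjusted p not above 0.05 and a log2 fold change of 0.378 or more in either direction. Single values were tested by two-sided exact permutation, and correlations by shuffles within groups.

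The genes and lists were chosen with earlier results of these data known. Named were the 8 genes, pathway genes called (at most 8 per comparison, by smallest p), the 3 most similar genes of each member, and markers beside a result. Libraries are labelled as biological replicates. The smallest exact p of 4 against 4 is 0.0286. The models were tested on simulated data.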

Additional observations from a re-analysis of the deposited data

Results flagged for a closer look

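In 4 of 60 sets of 4 libraries looked at, 1 library stood apart by Dixon's criterion, where chance gives about 1 in 20. Cnr1 had a low library in Heroin-SA (replicate 4, 15.1 FPKM), and Napepld a high library in Saline-SA (replicate 2, 2.63 FPKM). The longer Faah entry had a low library in Heroin-SA (replicate 2, 6 reads), and the shorter a high one there (replicate 3, 30 reads).

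The heroin effect on Napepld differed between the self-administration and the injection experiment by 0.76 on the log2 scale, with an unadjusted limma p of 0.0182 and an adjusted p of 0.718. Mode of intake and experiment cannot be told apart there. Without the high Saline-SA library, the effect of self-administered heroin on Napepld was 0.85.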

How the results depend on the processing

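Counts of the 9 gene IDs called changed mainly with the limits of a call. Without the limit on the fold change they were 1 for LPS-Saline against Saline-Saline (Mgll), 2 for LPS-Heroin against Saline-Saline (Dagla, Mgll), 2 for LPS-Heroin against LPS-Saline, 1 for the LPS main effect, 2 for the heroin main effect and 6 for Saline-SA against Saline-Saline. At an adjusted p under 0.05 they were 0 for LPS-Heroin against LPS-Saline, the heroin main effect, Heroin-SA against Saline-SA and the difference between the heroin effects. Quantile normalization gave 0 for LPS-Heroin against LPS-Saline and for the heroin main effect. The latter was also 0 with a pseudocount of 1 and with limma-voom on recovered reads (library totals or median ratios, chosen after seeing the data). Leaving out 1 library at a time, counts ran from 0 to 1 for LPS-Saline, 0 to 1 for LPS-Heroin, both against Saline-Saline, 1 to 2 for LPS-Heroin against LPS-Saline, 1 to 2 for Heroin-SA, 0 to 1 for the heroin main effect and 1 to 4 for Saline-SA against Saline-Saline. The libraries that changed a count were Saline-Saline 3 (the shorter Faah entry in LPS-Saline), LPS-Saline 2 and 3 (the longer Faah entry also called), Saline-Saline 2 and Saline-SA 2 (Abhd6 also called between the saline groups, 4 in all), Saline-SA 3 (2 there), those named beside the results and, for the heroin main effect, LPS-Heroin 2, 3 and 4, Saline-Saline 1 and 3, Saline-Heroin 4 and LPS-Saline 2. Without Saline-Heroin 1 the shorter Faah entry also lost that call. The cause was not tested.

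Same-numbered libraries deviated together only weakly (r over 0.1 in at most 1 of 4 pairs), and the numbers were used as names. In LPS-Saline and in Saline-SA, 3 of 4 libraries were closest to the Saline-Saline library of their number. In the other comparisons 0 to 2 of 4 were closest to their own number, so the check does not settle whether numbers pair libraries. With the replicate block, every count of called gene IDs was as without it, and Napepld in Heroin-SA was 0.72 (unadjusted limma p of 0.0166). Napepld kept its direction and call in 20 of 21 alternatives, from 0.54 to 0.86, and lost the call at an adjusted p under 0.05. Over all comparisons and alternatives, 141 of 2366 effects changed sign, all with a size of at most 0.45. No pair of the genes passed the correction in either experiment or without the 2 libraries farthest from the median. Of 54 single values, 3 had an exact permutation p of 0.0286. They were Mgll and Dagla in LPS-Heroin against Saline-Saline and Dagla in LPS-Heroin against LPS-Saline, which share libraries. Groups of 4 give this p only where they do not overlap, which a pseudocount cannot change, so the equal count under each pseudocount is no check. The planned edgeR and DESeq2 fits were not run. Faah and Napepld had the fewest reads. The SE was largest for the 2 Faah entries, and against Saline-Saline it was larger for Cnr1 than for Napepld.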
